A study of Homo sapiens with 8 samples.

Results

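Untreated HCT116 cells carrying the DPF2 R350H change were compared with untreated WT HCT116 cells. The libraries were chosen by the submitters' genotype and treatment labels: 4 of the 8 RNA sequencing libraries were labelled as untreated, 2 for each genotype. HCT116 is a human colon cancer cell line, and R350H denotes an arginine-to-histidine change that was introduced into the DPF2 gene of these cells by CRISPR/Cas9 editing. The other 4 libraries came from the same genotypes after 24 h in 0.5 µM doxorubicin, a drug that damages DNA. No other allele or agent is named for any group. The labels do not say how many edited clones were used, whether each copy of the gene was changed, or whether replicates came from separate cultures. A difference between these lines from the edit therefore cannot be told apart from a difference between clones, and p-values measure the spread between the sequenced samples only.

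DPF2 is a subunit of the BAF complex, a chromatin remodeller that uses the energy of ATP to slide or evict nucleosomes and so opens promoters and enhancers. DPF2 carries tandem PHD fingers, folds that bind acetylated histone tails, and the series was designed around the binding of BAF to acetylated lysine of the histone H3 core. The damage response was the stated interest of the series. The untreated libraries give the state of both lines before the drug.

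The untreated libraries held 28111673 to 33727374 counts, of which 11.2% to 11.8% fell on mitochondrial genes. Values below are CPM, counts scaled to a common library size, and 3 counts in a library correspond to between 0.0899 and 0.11 CPM. Replicates correlated at r = 0.9968 across genes for WT and r = 0.9976 for R350H, on log2 CPM. The colonic epithelial markers summed to 3297 and 3682 CPM in WT and to 3120 and 3103 CPM in R350H, with 7 of 10 markers tested and CDX1 at 0. Fibroblast markers summed to 55.96 and 63.5 CPM in WT and to 89.7 and 81.3 CPM in R350H, with COL1A2, DCN and LUM at 0. Neural markers summed to 10.8 and 11.9 CPM in WT and to 19.1 and 19.4 CPM in R350H. Blood cell markers stayed under 1 CPM in sum in every untreated library, and CD3E was at 0. The part of these markers in the results was not tested, and in bulk RNA fewer cells of a type and less RNA per cell cannot be told apart.

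The 2 lines differed in many genes before any drug was given. Of 17868 genes tested, 6570 (36.8%) differed at an adjusted p under 0.05 in edgeR's quasi-likelihood test, 3084 higher (17.3%) and 3486 lower (19.5%) in R350H. Most of these differences were small. At least 2-fold differences were called for 536 genes higher (3.0%) and 499 genes lower (2.79%). The 4 libraries separated by genotype, without overlap, in 5852 genes with higher values (32.8%) and 6236 with lower values (34.9%) in R350H. When libraries were scaled by their total counts alone, 57.4% of the calls were higher in R350H instead of 46.9%, and the median difference over all genes was 0.04 instead of -0.01 on the log2 scale. When the test asked for a difference above 1.5-fold, 427 genes were higher and 471 lower.

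DPF2 mRNA itself was lower in the edited line. DPF2 (chromosome 11, 65333852 to 65354262, hg38) measured 94.7 and 92.7 CPM in the WT libraries and 58.6 and 54.4 CPM in the R350H libraries. The groups did not overlap, and the difference was -0.73 ± 0.07 (log2, SE; adjusted p = 9.3e-10, edgeR). The counts are per gene and do not show the edited codon, so they do not check the genotype labels. Of the genes within 3 Mb of DPF2, 200 were tested and their median difference was -0.05.

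Many BAF subunits were lower together with DPF2. Of 30 subunit genes tested, DPF2 among them, 15 were lower and 2 higher, against 19.5% and 17.3% of all genes. The median was -0.18. DESeq2 called 12 lower and 1 higher, and the test for a difference above 1.5-fold called 2 lower and 0 higher. SMARCC1, a core scaffold subunit, measured 315 and 289 CPM in WT and 179 and 176 CPM in R350H, a difference of -0.77 ± 0.07 (adjusted p = 5.2e-10, edgeR). Its paralogue SMARCC2 fell from 191 and 180.0 CPM to 124.0 and 117 CPM. SMARCA4, the ATPase that drives remodelling, measured 143 and 142 CPM in WT and 98.2 and 97.7 CPM in R350H. In each of these the WT libraries lay above both R350H libraries, as they did in 18 of the 30 subunit genes and in 34.9% of all genes. The subunits that rose were BRD9, a bromodomain subunit of the non-canonical complex, by 0.60 ± 0.07, and BCL7B by 0.23 ± 0.08. BRD9 lies on the part of chromosome 5 described below, and BCL7B lost its call (adjusted p above 0.05) with DESeq2 and without WT replicate 1 or either R350H replicate.

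The largest rises spanned several functions. TIMP3, a secreted inhibitor of matrix metalloproteinases, measured 1.35 and 1.17 CPM in WT and 25.5 and 25.9 CPM in R350H. The edited line was thus 20.2-fold higher (log2 4.34 ± 0.15, adjusted p = 2.4e-18, edgeR). ALDH1L1, an enzyme of folate metabolism, rose from 20.4 and 22.5 CPM to 210.1 and 201 CPM. PAPSS2, which makes the sulfate donor PAPS, rose from 32.8 and 29.6 CPM to 181 and 175 CPM. GCHFR, the feedback regulator of GTP cyclohydrolase, measured 0.24 and 0.15 CPM in WT and 10.5 and 9.53 CPM in R350H; it overlaps DNAJC17 on the other strand, as UTS2B, ALDH1L1, SCN9A, VIM and ADIRF-AS1 overlap other genes. VIM, the intermediate filament vimentin, stood at 2.91 and 2.97 CPM in WT and at 12.8 CPM in both R350H libraries. The other rises of this set were UTS2B, IGSF11, DNER, SCN9A, LONRF2, LINC00659, GRHL3, PTGER4, CAPN6 and ADIRF-AS1, with log2 differences from 2.01 to 3.83. PTGER4 lies on the raised part of chromosome 5 described below. ADIRF-AS1 and PAPSS2 are neighbours, with starts 0.69 Mb apart on chromosome 10.

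Several genes that WT cells expressed were almost silent in the edited line. ZNF84, a KRAB zinc finger gene on chromosome 12, had 726 and 585 counts in the WT libraries and 0 in both R350H libraries. With a floor of 3 counts per library it was at least 228.1-fold lower. ZNF91, a zinc finger gene known to silence retrotransposons, had 245 and 184 counts in WT and 0 in R350H, and was at least 71.8-fold lower. PDE4B, which degrades cyclic AMP, measured 27.2 and 26.1 CPM in WT and 0.28 and 0.12 CPM in R350H. ABCA1, the cholesterol exporter, fell from 10.8 and 9.19 CPM to 0.16 and 0.09 CPM. SEMA3A, a secreted guidance cue, fell from 34.4 and 27.7 CPM to 0.81 and 0.53 CPM (-5.53 ± 0.18, adjusted p = 6.7e-18, edgeR). Other falls of this set were ZNF211, ODAD2, CD22, HKDC1, INAVA, KRT80, NES, SWAP70, KRT7 and GALNT5, from -4.75 to -2.45. KRT80 and KRT7 are neighbours, with starts 0.064 Mb apart on chromosome 12.

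**Figure D1:**
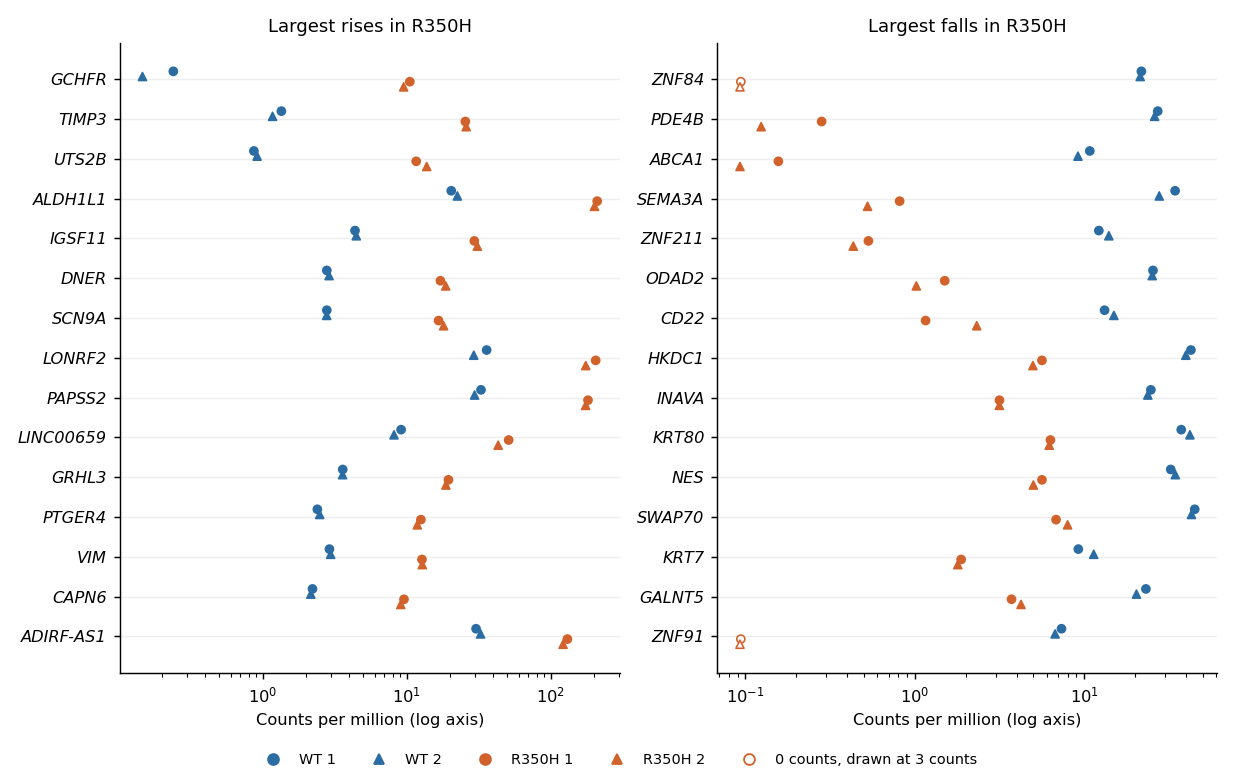
CPM (log axis) of 15 of the largest rises and 15 of the lowered or near-silent genes in each untreated library; circles are replicate 1, triangles replicate 2, and open symbols mark libraries with 0 counts, drawn at the level of 3 counts. The genes were chosen in part because both R350H libraries lie on one side of both WT libraries.

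ZNF91 and ZNF211 are among the many zinc finger genes of chromosome 19. Of 157 tested, 50 were lower (31.8%) and 8 higher (5.1%), with a median of -0.14. The other 1050 genes tested on chromosome 19 had nearby shares, with 26.9% lower, 9.52% higher and a median of -0.10, against 19.5% and 17.3% of all genes. The falls of some zinc finger genes were large. In the test for a difference above 1.5-fold, 24 of the 157 were lower and 1 higher. Over all 17868 genes that test gave 471 lower and 427 higher, and it was not counted for the rest of chromosome 19. The zinc finger list was added after values had been seen. Without R350H replicate 2, 45 were lower and 3 higher, and 5 were higher without WT replicate 2 or R350H replicate 1.

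Interferon-stimulated genes stood lower in untreated R350H cells. Type I interferon signals through JAK kinases to the factor ISGF3, which includes STAT2 and IRF9 and binds a short promoter element and switches on antiviral genes. Of 49 such genes tested, 38 were lower (77.6%) and 1 was higher (2.04%), against 19.5% and 17.3% of all genes, and the median was -0.84. PLSCR1, an antiviral membrane protein, measured 66.4 and 75.5 CPM in WT and 22.7 and 25.8 CPM in R350H (-1.55 ± 0.08, adjusted p = 2.8e-14, edgeR). EIF2AK2, the kinase PKR that senses double-stranded RNA, fell from 215 and 218 CPM to 106 and 113 CPM. PARP9 fell from 59.6 and 64.8 CPM to 27.5 and 28.8 CPM, and IFITM2, which blocks virus entry, from 82.4 and 95.6 CPM to 44.2 and 43.3 CPM. In all 4 genes, named for their small adjusted p, the groups did not overlap. Over the list, 44 of the 49 had lower values in R350H without overlap, against 34.9% of all genes.

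The genes of these ISGF3 components were also lower. These and the next members were picked after their values were seen. STAT2 fell by 0.58 ± 0.07, from 120.1 and 130 CPM to 81.6 and 85.1 CPM. IRF9 fell from 8.78 and 8.97 CPM to 4.94 and 4.27 CPM. IFI44 was among the deepest falls, at 3.36 and 3.73 CPM in WT and 0.50 and 0.43 CPM in R350H. ISG15, a ubiquitin-like modifier, measured 139 and 220.0 CPM in WT, further apart than the R350H values of 63.2 and 68.3 CPM; its call was lost without R350H replicate 1 and in a fit of the 4 untreated libraries alone. IFI27 measured 2.46 and 4.54 CPM in WT and 0.69 and 0.53 CPM in R350H. The 1 member that rose was DDX60L, at 110.0 and 99.96 CPM in WT and 189 and 182 CPM in R350H.

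The promoters of 4 of these genes are shown to place the element that ISGF3 binds next to the values. Each run is the 250 bases before the RefSeq gene start (GRCh38.p14), 5′ to 3′ on the gene's strand, with matches to GAAANNGAAA or its reverse complement TTTCNNTTTC in capitals. IFI44 is at chr1:78649539-78649788 (plus strand), IFI27 at chr14:94110486-94110735 (plus), PLSCR1 at chr3:146544608-146544857 (minus) and ISG15 at chr1:1013247-1013496 (plus).
IFI44: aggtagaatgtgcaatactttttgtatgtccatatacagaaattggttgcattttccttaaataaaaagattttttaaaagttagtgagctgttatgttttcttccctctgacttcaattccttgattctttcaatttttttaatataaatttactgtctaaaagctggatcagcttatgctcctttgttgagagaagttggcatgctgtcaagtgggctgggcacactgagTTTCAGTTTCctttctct
IFI27: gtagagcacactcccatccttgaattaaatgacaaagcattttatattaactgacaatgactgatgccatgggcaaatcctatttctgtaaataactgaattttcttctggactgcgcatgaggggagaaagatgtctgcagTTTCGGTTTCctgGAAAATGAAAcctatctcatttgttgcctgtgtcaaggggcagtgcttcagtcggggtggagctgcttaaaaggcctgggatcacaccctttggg
PLSCR1: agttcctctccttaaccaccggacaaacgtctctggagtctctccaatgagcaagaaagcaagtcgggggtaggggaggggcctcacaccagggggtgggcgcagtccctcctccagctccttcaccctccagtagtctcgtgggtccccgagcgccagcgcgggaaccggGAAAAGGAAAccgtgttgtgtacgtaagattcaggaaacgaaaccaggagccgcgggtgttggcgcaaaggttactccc
ISG15: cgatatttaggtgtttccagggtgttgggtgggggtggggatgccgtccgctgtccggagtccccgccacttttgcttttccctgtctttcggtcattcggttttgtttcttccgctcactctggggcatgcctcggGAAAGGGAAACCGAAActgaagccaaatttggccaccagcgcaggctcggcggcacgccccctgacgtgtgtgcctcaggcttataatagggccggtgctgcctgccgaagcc

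The first match began 18 bases before the start in IFI44, 108 in IFI27, 79 in PLSCR1 and 113 in ISG15, where 2 matches overlap. Of the interferon-stimulated genes with a promoter in the table, 22 of 40 (55.0%) held a match. The share was 19 of 33 (57.6%) among members that were lower and 3 of 7 (42.9%) among members that were not. Over all promoters of this length 839 of 27305 (3.07%) held one, and among other genes that were lower in R350H 55 of 2543 (2.16%) did. A match describes the letters only and is not a measured binding site.

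**Figure D2:**
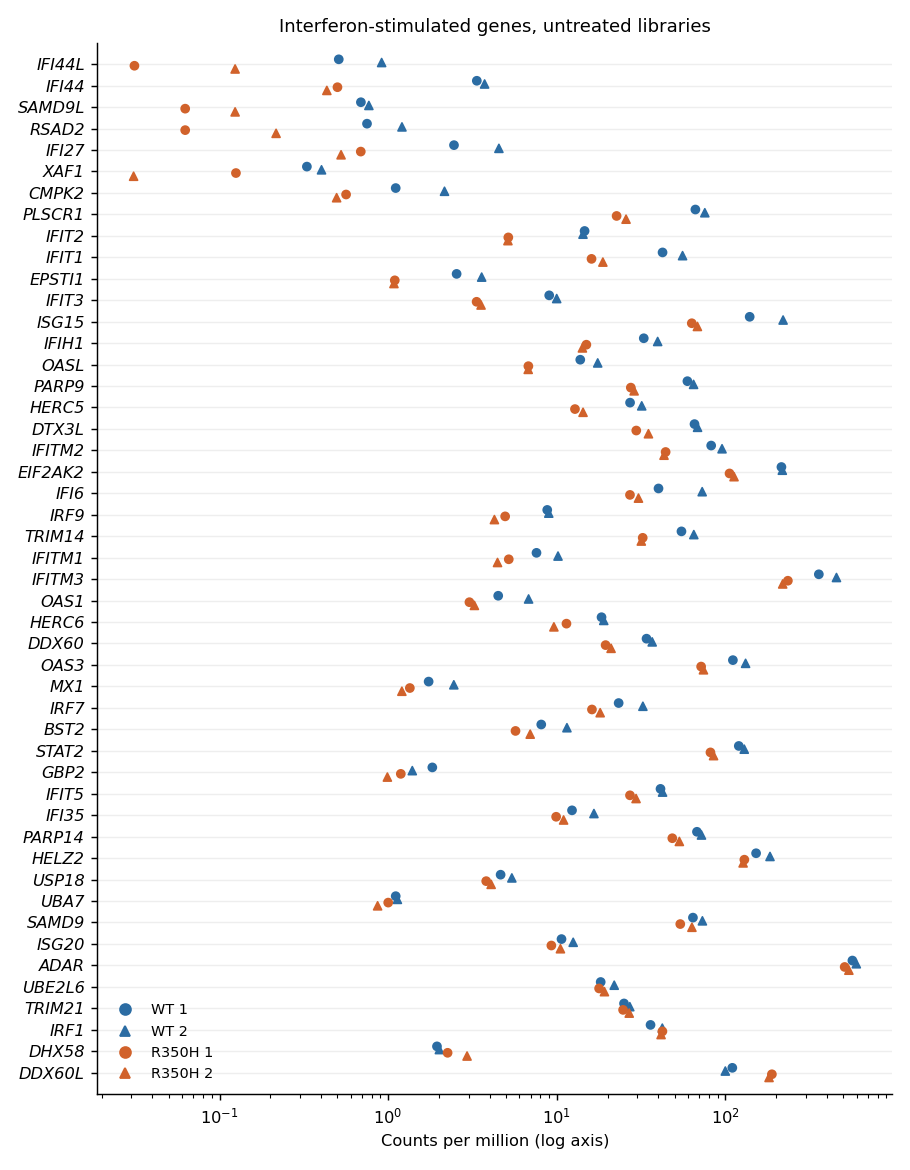
CPM (log axis) of 48 of the 49 interferon-stimulated genes tested, in each untreated library, sorted by the difference between genotypes. Most genes show both R350H libraries (orange) to the left of both WT libraries (blue), and DDX60L at the bottom shows the opposite order.

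Targets of the tumour suppressor p53 moved the other way. p53 is the transcription factor that arrests or kills cells after DNA damage and is intact in HCT116. Of 47 targets tested, 32 were higher and 1 lower in untreated R350H cells, with a median of 0.33, against 17.3% and 19.5% of all genes. CDKN1A, which encodes the cell cycle inhibitor p21, measured 522 and 568 CPM in WT and 962 and 1068 CPM in R350H, a rise of 0.90 ± 0.07 (adjusted p = 1.2e-10, edgeR). PLK2, a stress-induced kinase, rose from 15.9 and 14.2 CPM to 34.7 and 34.05 CPM. CMBL rose from 74.7 and 81.3 CPM to 165 and 188 CPM, and lies within the raised part of chromosome 5. TP53I3, picked after its values were seen, rose from 15.3 and 17.3 CPM to 25.1 and 24.7 CPM. MDM2, which targets p53 for degradation, measured 270.4 and 245 CPM in WT and 278 and 303 CPM in R350H and was not called (adjusted p = 0.056, edgeR). The single fall was TNFRSF10A, a receptor for the death ligand TRAIL, by 0.96 ± 0.07; 3 were lower without WT replicate 1 and 2 without WT replicate 2. With doxorubicin CDKN1A measured 2048 and 1958 CPM in WT and 1864 and 1917 CPM in R350H.

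Immediate early genes, which growth factors and stress switch on within minutes, were also more often higher. Of 30 tested, 14 were higher (46.7%, against 17.3% of all genes) and 6 lower (against 19.5%), with a median of 0.16; without WT replicate 1, 13 were higher and 10 lower. EGR1, a zinc finger transcription factor, rose from 94.8 and 103 CPM to 218 and 205 CPM. JUN, a component of AP-1, rose from 31.2 and 32.6 CPM to 65.8 and 65.4 CPM. KLF4 went the other way, from 57.1 and 65.9 CPM to 28.9 and 28.1 CPM. Among 17 feedback genes of the ERK pathway, 7 were higher and 2 lower. DUSP6, the phosphatase that switches ERK off, rose from 215 and 223 CPM to 424 and 455 CPM (1.01 ± 0.07, adjusted p = 2.7e-12, edgeR). The falls in that group were ETV4, by 0.64 ± 0.07, and ETV1, whose call was lost without WT replicate 1 or either R350H replicate and with total-count scaling.

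Genes of the translation machinery were lower as a group, where 19.5% of all genes were lower and 17.3% higher. Ribosomal protein genes took 5.54% and 6.30% of all counts in the WT libraries and 4.30% and 4.28% in the R350H libraries. Of 79 tested, 73 were lower and 1 higher, and the median was -0.48; this list was added after values had been seen. Without WT replicate 2, 69 were lower and 2 higher. RPS2 fell from 3080 and 3573 CPM to 1825 and 1806 CPM. RPL8 fell from 1958 and 2285 CPM to 968 and 959 CPM, and RPL30 from 696 and 829 CPM to 381 and 361 CPM. RPL8 and RPL30 both lie on chromosome 8, and the single riser RPL37, at 560.5 and 647 CPM in WT and 817 and 815 CPM in R350H, lies on chromosome 5. Outside the chromosome parts described below, 71 were lower and 0 higher (edgeR; 0 higher at an unadjusted p under 0.05). In WT, replicate 2 was higher than replicate 1 in each of these 4 genes. Ribosomal protein mRNAs have many processed pseudogenes, so the values of single members depend on how reads shared with such copies were counted.

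Genes that build ribosomes and charge tRNAs showed a smaller fall, set here beside 19.5% of all genes lower and 17.3% higher. Of 40 ribosome biogenesis genes, 26 were lower and 0 higher (edgeR; 1 higher at an unadjusted p under 0.05, and 0 by DESeq2), with a median of -0.25; 1 was higher without WT replicate 2. TSR1, an assembly factor of the small subunit, fell from 115 and 115 CPM to 52.8 and 52.98 CPM. NOB1, the nuclease that matures 18S ribosomal RNA, fell by 0.54 ± 0.07. Of 20 cytosolic tRNA synthetases, 13 were lower and 1 higher, with a median of -0.25. LARS1, which charges leucine tRNA, fell from 478 and 453 CPM to 312 and 314 CPM. TARS1, for threonine, rose from 449 and 445 CPM to 674 and 639 CPM and lies on the raised part of chromosome 5.

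DNA replication and repair genes were mixed, with more falls than rises. The shares of all genes were 19.5% lower and 17.3% higher. Of 51 replication and G1/S genes, 19 were lower and 5 higher, with a median of -0.13. MCM2 and MCM4, subunits of the replicative helicase, fell from 87.8 and 88.5 CPM to 49.9 and 46.5 CPM and from 82.3 and 78.0 CPM to 50.7 and 48.2 CPM. PCNA, the sliding clamp, rose from 75.3 and 79.3 CPM to 116 and 124 CPM. Other risers were RRM2, CLSPN and TK1, between 0.33 and 0.54. Of 31 homologous recombination and Fanconi genes, 13 were lower and 5 higher (BRCA1, BRCA2, EXO1, RBBP8 and RAD50). The excess of falls was smaller with other processing. DESeq2 called 7 lower and 4 higher, without RAD50, and total-count scaling gave 8 lower and 6 higher. RBBP8, a partner of BRCA1 in end resection, rose by 0.55 ± 0.07, and FANCD2 fell by 0.42 ± 0.07. These counts rest on single libraries in part: 7 were lower without WT replicate 1 or without R350H replicate 1 and 8 without R350H replicate 2, and 3 were higher without WT replicate 2 and 1 without either R350H replicate. Of 42 mitotic genes, 13 were higher and 6 lower; 3 were lower without WT replicate 1 and 2 without either R350H replicate.

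Epithelial genes and cell junction genes were lower more often than higher, against 19.5% of all genes lower and 17.3% higher. Of 28 epithelial and colonic genes tested, 14 were lower and 3 higher, with a median of -0.22. ELF3, an epithelial transcription factor, fell from 122 and 137 CPM to 61.4 and 59.4 CPM, and the tight junction gene CLDN4 from 317 and 373 CPM to 171 and 160.2 CPM. KLF5, a factor of proliferating crypt cells, rose from 78.6 and 75.1 CPM to 153 and 159 CPM; the others that rose were CEACAM1 and TJP1. Of 10 desmosome genes, 6 were lower and 0 higher (edgeR and DESeq2; 1 higher at an unadjusted p under 0.05). DSC2 and DSC3, adjacent desmocollin genes on chromosome 18, fell by 2.04 ± 0.09 and 2.32 ± 0.11. DSC2 measured 53.6 and 51.2 CPM in WT against 12.9 and 12.6 CPM in R350H. Of 16 keratins, 8 were lower (KRT80 and KRT7 among them) and KRT10 was higher; KRT10 lost its call without WT replicate 1 and with strand setting 2 only. The desmosome and keratin lists were added after values had been seen.

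Matrix and adhesion genes did not move as one. Of the collagens, laminins and integrins, 19.4% were higher, near the 17.3% of all genes, and 29.0% lower, against 19.5%. Their median was -0.04. Of 31 collagens, laminins and integrins, 6 were higher and 9 lower; 3 were higher and 7 lower without R350H replicate 1. ITGB1, the common integrin beta subunit, rose from 644 and 612 CPM to 1498 and 1577 CPM (1.29 ± 0.07, adjusted p = 5.9e-14, edgeR). ITGB5 fell from 77.2 and 82.6 CPM to 37.4 and 36.5 CPM, and COL13A1 from 9.41 and 9.11 CPM to 3.16 and 3.25 CPM.

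Genes of BMP signalling and ID genes were more often higher than lower, against 17.3% of all genes higher and 19.5% lower. BMP ligands act through SMAD factors and induce the ID genes, inhibitors of differentiation factors. Of 14 genes tested, 9 were higher and 1 lower, with a median of 0.31. ID2 rose from 36.4 and 37.3 CPM to 114 and 102 CPM, ID3 from 53.5 and 61.5 CPM to 156 and 139 CPM, and the homeobox gene MSX2 from 6.80 and 7.17 CPM to 22.8 and 23.4 CPM. SMAD7, an inhibitory SMAD, was the 1 that fell, by 0.70 ± 0.21; its call was lost without R350H replicate 1 and with strand setting 2 only. WNT feedback and target genes went both ways, with 8 higher and 9 lower of 22; without R350H replicate 1, 5 were higher and 8 lower. RNF43, which removes WNT receptors from the surface, fell from 6.29 and 6.99 CPM to 1.09 and 1.36 CPM. SOX9, a crypt transcription factor, fell by 1.13 ± 0.07.

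Genes of cholesterol synthesis and glycolysis were more often higher than lower, beside 17.3% of all genes higher and 19.5% lower. Of 26 cholesterol synthesis genes, 12 were higher and 3 lower (SQLE, MVD and SREBF1), with a median of 0.20; MVD lost its call without WT replicate 2 or R350H replicate 2. HMGCS1, an early enzyme of the pathway, rose from 57.4 and 57.2 CPM to 104 and 107 CPM, and TM7SF2, a sterol reductase, from 38.7 and 43.3 CPM to 95.9 CPM in both libraries. HMGCS1 lies on the raised part of chromosome 5, and SQLE, which fell from 49.0 and 47.4 CPM to 26.4 and 30.3 CPM, on the lowered part of chromosome 8. Of 36 glycolysis and hypoxia genes, 13 were higher, 6 lower (16.7%) and 17 not called. Their median of 0.04 lay near the -0.01 of all genes. PKM, pyruvate kinase, rose from 1310 and 1389 CPM to 2464 and 2272 CPM and PGK1 by 0.56 ± 0.07, while SLC2A1, the glucose transporter GLUT1, fell by 0.58 ± 0.07.

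**Figure D3:**
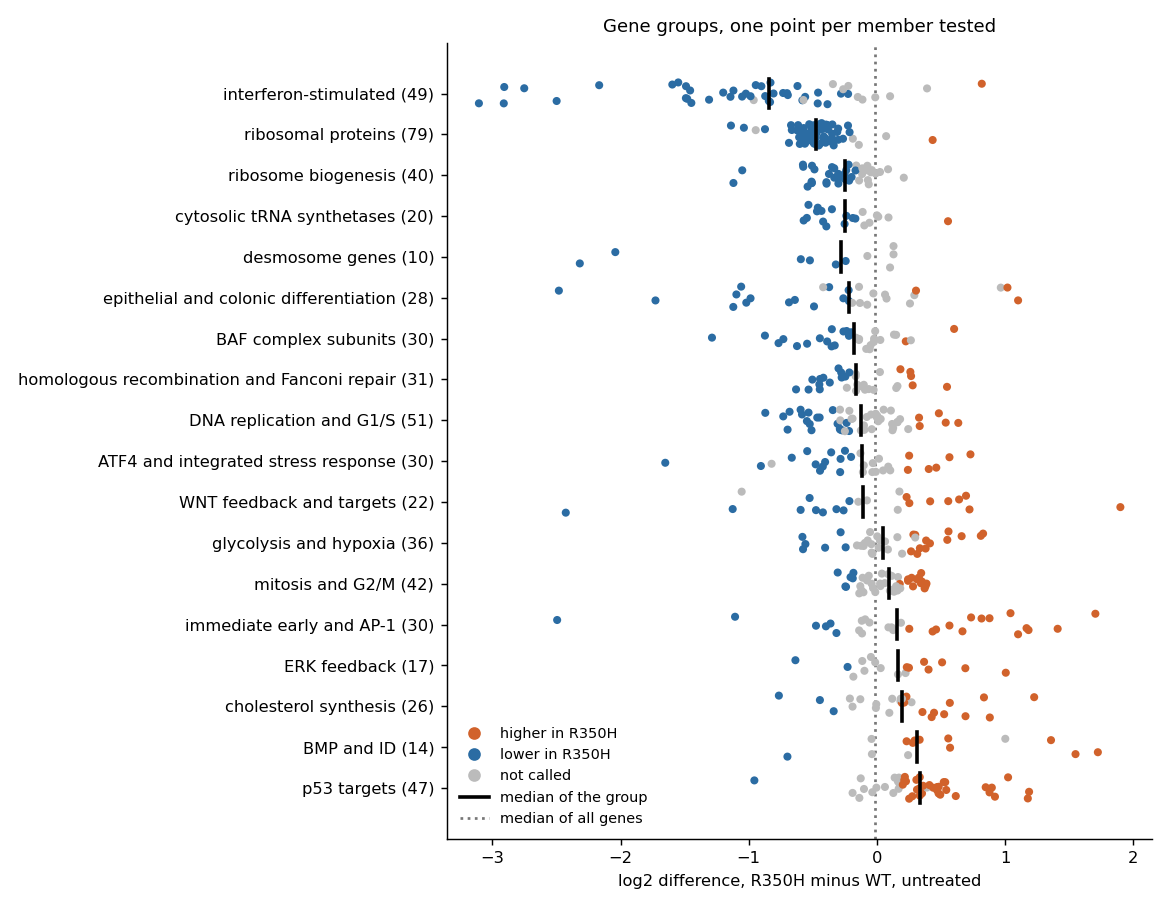
Log2 difference between untreated R350H and WT cells for each tested member of 18 gene groups, 1 point per gene, coloured by call; the black bar is the median of the group and the dotted line the median of all genes. Interferon-stimulated genes (median -0.84) and ribosomal protein genes (median -0.48) lie to the left and p53 targets (median 0.33) to the right.

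Genes of the integrated stress response went both ways between the untreated lines, and nearly all were lower in R350H after the drug. In this response kinases that sense amino acid lack or unfolded protein slow translation and raise ATF4, which induces amino acid synthesis and stress genes. Of 30 genes, 6 were higher and 13 lower (43.3%) in untreated R350H cells, against 17.3% of all genes higher and 19.5% lower, with a median of -0.12. With doxorubicin 27 of these 30 were lower, with a median of -1.43, beside 21.0% of all genes lower and 19.1% higher in that comparison. The difference between the 2 genotype comparisons passed the test of the interaction for 26 genes. DDIT3, which encodes the factor CHOP, rose without the drug, from 112 and 125 CPM in WT to 202 and 191 CPM in R350H. With the drug it stood at 84.8 and 84.9 CPM in WT and at 13.8 and 14.7 CPM in R350H. Its genotype difference was 0.73 ± 0.07 untreated and -2.58 with doxorubicin, and it overlaps MARS1 on the other strand. ATF3, a stress-induced repressor, differed by 0.57 and -1.95, PPP1R15A, which ends the response, by 0.40 and -1.41, and PSAT1, a serine synthesis enzyme, by 0.24 and -1.66. PSAT1 lost its untreated call without R350H replicate 1. DDIT4 was lower in both states, by 0.66 untreated and 1.87 with doxorubicin, as was CHAC1, picked after its values were seen, by 0.54 and 3.47.

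Part of the untreated difference was also found in treated cells. The 2 comparisons share no library. Of the 6570 genes called untreated, 3812 (58.0%) were called in the same direction with doxorubicin, 303 in the opposite direction and 2455 were not called. Of the 1035 genes that differed at least 2-fold, 718 (69.4%) kept their direction and call, and 13 were called in the opposite one. Across all genes tested, the untreated and treated differences correlated at r = 0.64 (Spearman's rho 0.53), a description across genes that are not independent replicates. The interaction was called for 2617 genes (14.6%), and for 1620 or 1624 without R350H replicate 1 or 2. Of the 303 that changed direction, 224 were higher untreated and lower with doxorubicin, PLK2 among them (1.19 and -0.77), and 79 lower and then higher.

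Gene groups differed in this respect. Ribosomal protein genes kept their difference, with a median of -0.48 untreated and -0.50 with doxorubicin, and none of 79 passed the interaction test (edgeR; 0 at an unadjusted p under 0.05, 0 by DESeq2). Interferon-stimulated genes had a median of -0.84 untreated and -0.30 with doxorubicin, and 19 passed the test with a larger fall in untreated cells. p53 targets had a median of 0.33 untreated and -0.08 with doxorubicin, where 10 were higher and 15 lower. BMP and ID genes had medians of 0.31 and 0.64, and BAF subunits of -0.18 and -0.05. With doxorubicin, 9 of the 30 subunit genes were lower and 2 higher.

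**Figure D4:**
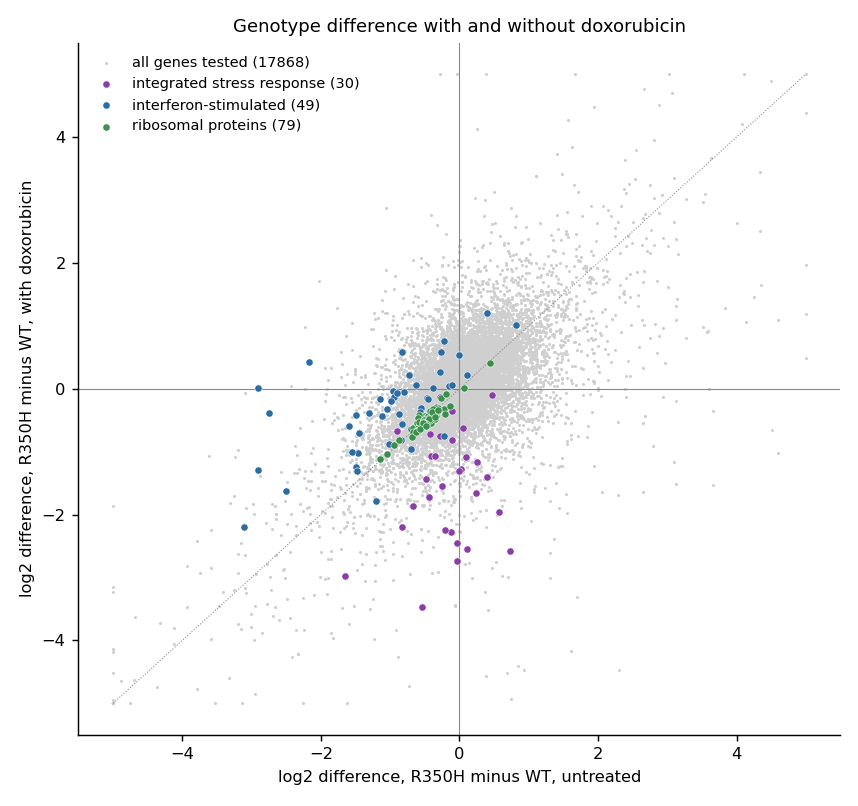
Log2 difference between R350H and WT for 17868 genes, untreated on the horizontal axis and with doxorubicin on the vertical axis, with values beyond ±5 drawn at the edge. Ribosomal protein genes lie along the dotted line of equal differences, and genes of the integrated stress response lie below it.

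The deposited table of TPM, a level scaled by gene length and depth, holds 202 genes that the submitters selected by a rule that no source used here states. On log2(TPM + 1), limma called 94 of them higher (46.5%) and 35 lower (17.3%) in untreated R350H cells. The counts of the same genes gave 100 higher and 37 lower untreated, with a median of 0.29, and 6 higher and 175 lower with doxorubicin, with a median of -1.18. For 123 genes both tests gave the same untreated call. For 73 genes the counts were higher in untreated R350H cells and lower in treated ones. Since the submitters chose the genes of this table, its counts are not independent evidence of a direction.

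Some differences followed chromosome position. Tested genes were grouped into windows of 10 Mb, of which 283 held at least 15 genes, and the median difference was at or beyond 0.3 in 9 of them. Of these windows, 4 covered chromosome 5 from 0 to 20 and from 30 to 50 Mb, with medians from 0.69 to 0.93. Their 137 genes included 103 higher and 3 lower, with a median of 0.84, a 1.79-fold difference. Another 4 were on chromosome 8, from 50 to 60, 100 to 110, 120 to 130 and 140 to 150 Mb, with medians from -0.64 to -0.40. Their 210 genes included 137 lower and 7 higher. The last was on chromosome 3, from 90 to 100 Mb, with a median of 0.41. With doxorubicin the chromosome 5 genes had a median of 0.86 and the chromosome 8 genes of -0.53. Of the 262 genes of these windows called untreated, 226 (86.3%) were called in the same direction with doxorubicin, beside 58.0% of all called genes. DNA copy number was not measured in these files, so its part was not tested. The other 17499 genes had a median of -0.01, and without the windows 2942 genes were higher and 3332 lower. On chromosome 8, lower values were not confined to the 4 windows named. Its windows from 60 to 100 Mb and from 130 to 140 Mb, short of the threshold, had medians from -0.28 to -0.09. From 130 to 140 Mb, 7 of 15 genes were lower and 0 higher. Chromosome 8 from 110 to 120 Mb and chromosome 5 from 20 to 30 Mb held too few tested genes to be among the 283 windows.

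**Figure D5:**
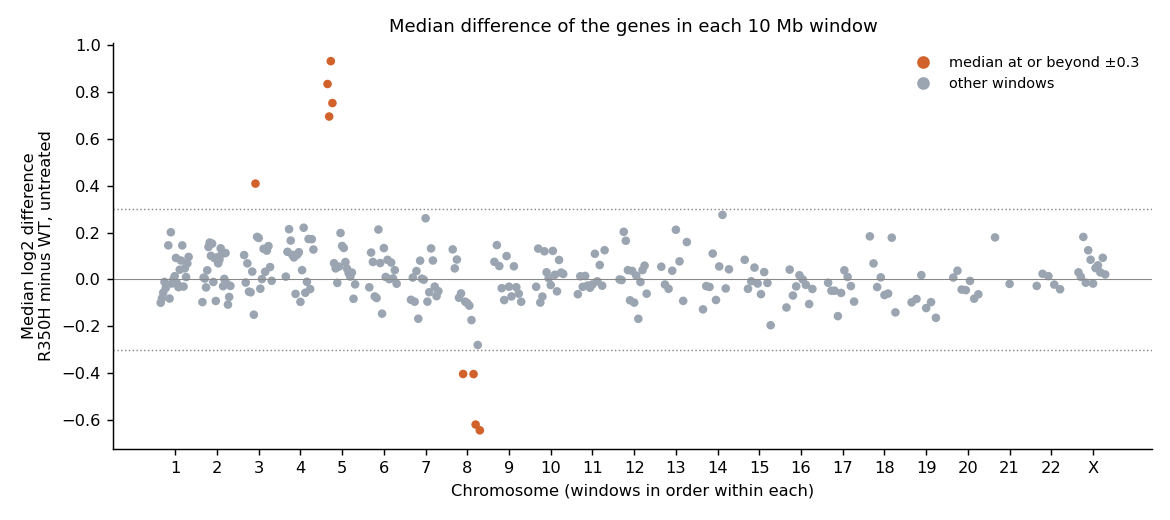
Median log2 difference between untreated R350H and WT cells for each 10 Mb window with at least 15 tested genes, 1 point per window, in chromosome order. The orange windows lie at or beyond ±0.3, 4 of them on chromosome 5 above 0.6 and 4 on chromosome 8 below -0.3.

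The 2 libraries of each genotype were not counted in the same way. WT replicate 1 and R350H replicate 2 were counted with strand setting 1, and WT replicate 2 and R350H replicate 1 with strand setting 2, per the file headers. Of genes with a mean of at least 1 CPM, 5859 overlap an exon on the other strand and 8334 do not. The median of setting 1 minus setting 2 lay between -0.02 and 0.01 in both sets and genotypes, and no gene differed at least 2-fold in the same way in both genotypes. The shares called were 43.0% and 43.1%. Where the gene on the other strand held at least 20 times the counts, 127 of 911 genes (13.9%) were called. Genes that overlap another gene, GCHFR among them, are reported as measured, and reads of the partner were not separated here.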

How the data were processed

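Per the labels, TRIzol was used for RNA and a TruSeq kit that keeps strand for the mRNA libraries. The deposited counts per gene come from featureCounts, per the file headers. The submitters' processing notes name hg38, STAR 2.7.5a, Trim Galore 0.6.10, featureCounts 1.5.0-p1 and DESeq2 1.36.0. The authors' TPM table gives 202 genes per library, and how they were computed is not stated in any source at hand.

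Counts of all 8 libraries were fitted with edgeR 4.0.16 (R 4.3.3): TMM scaling, filterByExpr, the robust quasi-likelihood fit with 1 mean per group, and Benjamini-Hochberg adjustment over 17868 genes, called under 0.05. The biological coefficient of variation was 5.35%, with 4 residual degrees of freedom before moderation. The untreated R350H minus WT contrast is the result; the interaction is its difference from the same contrast with doxorubicin. TPM values were tested with limma 3.58.1 on log2(TPM + 1). Positions are those of the count files. Symbols were found for 15814 of the genes tested. Replicates differed by more than sampling noise (chi-square per gene 8.62 in WT and 3.51 in R350H). The chi-square and floors take only counting error as noise, and no source used here names molecular identifiers. The ± values are standard errors derived from the log2 difference and the statistic of edgeR's quasi-likelihood test. They therefore include the estimated spread between libraries.

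The comparison, its gene lists and its tests were chosen with earlier results of these data known. Named genes are the 15 largest called rises and 15 falls with a mean of at least 5 CPM, a symbol and groups that do not overlap, the 4 smallest adjusted p-values of a list, BAF subunits, near-silent genes (under 0.1 against at least 5 CPM) and 5 genes that change direction with doxorubicin; 26 others were picked after their values were seen, among them members of small counts. Some genes that the rule names are not reported here. Alternatives are given in the closing section. DESeq2 1.42.0 was one of them. Levels of different genes are not compared, since CPM is not per length.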

Additional observations from a re-analysis of the deposited data

Results flagged for a closer look

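For 68 of 123 genes named in the report or among the other observations, edgeR's test of the interaction gave an adjusted p under 0.05. In these the difference between R350H and WT was not the same in untreated and in treated cells. The share over all genes tested was 14.6%. The choice of genes partly sets this count, since 5 were named for changing direction and 26 were picked after their values were seen. The values below are log2 interactions, the untreated difference minus the difference with doxorubicin, so a positive value means that R350H stood higher against WT without the drug. No explanation was weighed for them.

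Among stress response genes the interactions were DDIT3 3.31, CHAC1 2.93, ATF3 2.52, PSAT1 1.90, PPP1R15A 1.82 and DDIT4 1.21, and for the chaperone and tRNA synthetase genes HSPA5 0.87 and TARS1 0.52. Among p53 targets they were PLK2 1.96, CDKN1A 0.98, TP53I3 0.75 and MDM2 0.50. Immediate early genes gave JUN 1.29 and EGR1 0.99, and the ERK feedback genes went both ways, ETV4 0.46 and ETV1 -0.90. DNA replication and repair genes gave RRM2 1.37, TK1 0.89, CLSPN 0.79 and PCNA 0.56, and EXO1 1.14, BRCA1 1.08, RBBP8 0.84, BRCA2 0.68 and FANCD2 0.31.

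Interferon-stimulated genes had negative values, IFI44 -2.93, PARP9 -0.97, IRF9 -0.82, EIF2AK2 -0.78 and PLSCR1 -0.54. Negative values were also found for the BAF subunits, SMARCC2 -0.38 and SMARCA4 -0.28, where BCL7B was positive, BCL7B 0.46. The desmocollins gave DSC3 -1.04 and DSC2 -0.47, and other epithelial, keratin and matrix genes CEACAM1 1.56, KRT80 0.81, KRT10 0.72, TJP1 0.68, KLF5 0.54, ELF3 -0.35 and ITGB5 -0.45. The BMP genes gave ID3 0.50, ID2 0.40, MSX2 -0.54 and SMAD7 -1.28.

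Among the largest rises the interactions were UTS2B 2.54, LINC00659 2.01, ADIRF-AS1 1.33, TIMP3 0.89, GRHL3 0.65 and LONRF2 -0.79. Among the largest falls they were ZNF211 1.39, GALNT5 1.18, HKDC1 1.03, NES -0.58 and SEMA3A -1.34. Metabolic genes gave TM7SF2 0.60, PGK1 0.43, PKM 0.35, HMGCS1 -0.34 and MVD -0.71. The remaining genes gave AREG 2.12, CXCL8 1.05, ASF1A 0.60, TNFAIP2 -0.51, KIF20A -0.50 and EZH1 -0.31.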

How the results depend on the processing

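The counts of genes are those of edgeR's quasi-likelihood test unless another tool is named. No named gene with a call changed its direction in any refit, and 111 of 122 kept the call under every alternative except the 1.5-fold test. Of 1222 counts of list members recomputed, 194 moved by over 1.5 times, and 55 of 611 list medians moved by more than the spread between replicates. Against a difference of 1.5-fold, the counts were 427 genes higher and 471 lower, 314 higher by at least 2-fold, and 227 with an interaction. With only libraries of strand setting 2, where the lone untreated library of each genotype is assumed to vary like the treated groups, 1930 genes were higher and 1735 had an interaction. Without genes that overlap an exon on the other strand, fewer genes were tested, and 1875 were higher, 1990 lower, 351 higher by at least 2-fold and 1540 with an interaction. DESeq2 called 2619 higher and 2795 lower. Windows of 5 Mb gave 18 past the threshold in place of 9. Leaving out 1 untreated library gave 2098 to 2661 genes higher, 2503 to 3334 lower, 419 to 489 higher and 426 to 496 lower by at least 2-fold, 1620 to 2607 with an interaction and 9 to 11 windows. With the replicate block, 3015 genes were higher, 3438 lower and 2495 had an interaction, and 514 and 490 differed by at least 2-fold. The labels do not say whether replicate numbers pair the samples. The correlation of same-numbered deviations across genes was -0.083 between the untreated groups. It cannot decide this, because strand setting was crossed with replicate number. The block changed no call of a named gene. The TPM table gave 90 to 97 higher and 36 to 38 lower with other pseudocounts and 73 and 33 among genes with a mean of at least 1 TPM. The cause of these shifts was not tested beyond the genes and samples each alternative leaves out. With 2 libraries per group, an outlying library cannot be told apart from spread, and levels under 3 counts per library are not resolved.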

Other observations

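Other gene groups went both ways between untreated R350H and WT cells; over all genes, 17.3% were higher and 19.5% lower. Of 22 NF-kB factors and targets, 6 were lower and 3 higher. TNFAIP2, a cytokine-induced gene, fell from 104 and 113 CPM to 39.2 and 38.6 CPM and NFKB2, a subunit of the factor, by 0.58 ± 0.06, while the chemokine CXCL8 rose from 2.07 and 1.98 CPM to 4.88 and 4.76 CPM. Of 12 EGF receptor family genes, 3 were higher, EGFR among them (0.39 ± 0.07), and 4 lower, the ligand AREG among them (-0.39 ± 0.07). Of 15 amino acid transporters, 3 were higher and 5 lower, and 3 lower without R350H replicate 1; SLC1A3, a glutamate transporter, fell from 27.9 and 26.7 CPM to 7.73 and 7.30 CPM. SLC1A3 lies within the raised part of chromosome 5. Of 24 targets of NRF2, the oxidative stress factor, 8 were higher and 4 lower. NQO1 rose by 0.86 ± 0.07 and HMOX1 fell by 0.58 ± 0.12. Of 24 endoplasmic reticulum chaperone and unfolded protein genes, 6 were higher (25.0%) and 4 lower (16.7%), near the shares of all genes, and 2 were lower without R350H replicate 1. HSPA5, the main chaperone, rose from 2166 and 2299 CPM to 3023 and 3332 CPM.

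Of 13 factors that add, remove or carry H3K56 acetylation, 2 were higher (15.4%) and 3 lower (23.1%), shares near those of all genes, and 1 was lower without either R350H replicate. Among them were the histone chaperone ASF1A (0.53 ± 0.09) and the deacetylase SIRT6 (-0.53 ± 0.09). Of 13 polycomb and H3K27 demethylase genes, 4 were higher (30.8%) and 2 lower (15.4%); without R350H replicate 1, 1 was higher. EZH1, a methyltransferase subunit, fell by 0.60 ± 0.08. Of 16 antigen presentation genes, 2 were higher (12.5%) and 2 lower (12.5%), below the shares of all genes. Without WT replicate 1, 5 were lower; without WT replicate 2, 4 were higher and 1 lower; without R350H replicate 1, 0 were lower; without R350H replicate 2, 1 was higher and 1 lower. B2M, the common light chain of MHC class I, rose by 0.41 ± 0.07. Of 13 mesenchymal genes, 4 were higher and 4 lower, and 2 were higher without R350H replicate 1. Of 13 mitochondrially encoded genes, 4 were higher, with 2 higher without WT replicate 2 and 1 without either R350H replicate. KIF20A, a mitotic kinesin, rose by 0.38 ± 0.07.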
